A study of Mus musculus with 6 samples.

Results

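Desmosome genes, 10 of the 26586 genes counted, were followed across 6 RNA-seq libraries of sorted mouse uterine cells. They are the desmosomal cadherins Dsg2 and Dsc2, the plakins Dsp, Ppl and Evpl, the armadillo-repeat proteins Jup, Pkp1, Pkp2 and Pkp3, and the membrane protein gene Perp. The set was drawn up because Dsg2 separated the 2 sorted fractions. The difference between the fractions is therefore described for these genes without a test. The cells came from 3 mice carrying Axin2rtTA and tetOH2BJGFP, in which the Axin2 promoter drives the rtTA activator and doxycycline then switches on a histone-GFP fusion. The ovaries of all mice were removed at an age of 4 weeks. Doxycycline followed after 2 weeks of rest, and the uteri were taken 4 days later, at an age of 6 weeks. Cells isolated as endometrial epithelium were sorted into GFP-positive cells, labelled Axin2+, and GFP-negative cells, labelled Axin2-, so both fractions carry both transgenes and had the same surgery and drug. There were 3 libraries per fraction, numbered by mouse. Elsewhere the labels mention that cells were pooled across mice. In that case each SD and p-value covers only the spread between libraries, which may be technical.

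Desmosomes are spot-like junctions that tie the intermediate filaments of neighbouring cells together, and they are abundant where a tissue is pulled or stretched. Desmogleins and desmocollins meet between the cells, plakoglobin (Jup) and the plakophilins bind their tails, and desmoplakin (Dsp) links this plaque to keratin. Simple epithelia such as that of the uterus are known to use desmoglein 2 and desmocollin 2, whereas the other desmogleins and desmocollins belong mainly to stratified epithelia such as epidermis.

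The libraries summed to between 49714402 and 59597315 counts. Levels are given as CPM, counts scaled to a common library size with the TMM correction for library composition. The Axin2 transcript stood at 369, 357 and 356 CPM in mice 1, 2 and 3 in the libraries labelled Axin2-, and at 165, 243 and 299 CPM in those labelled Axin2+. It was thus lower where the label says positive (log2 fold change -0.61 ± 0.21 SE). The edgeR test gave an adjusted p of 0.0710, which misses the threshold of 0.05. DESeq2 passed it at an adjusted p of 0.026, and so did edgeR at 0.029 once the Axin2+ library of mouse 3 was left out. All directions given here are those of the labels. The summed level of 5 epithelial transcripts (Epcam, Krt8, Krt18, Krt19 and Cdh1) lay between 151 and 230.4 CPM in the libraries labelled Axin2- and between 1697 and 2700 CPM in those labelled Axin2+ (2699.5 in mouse 1). All 6 smooth muscle and all 6 stromal markers fell in the libraries labelled Axin2+ by the edgeR test, and their sums were 2095 to 5645 and 7830 to 16208 CPM in the libraries labelled Axin2- against 169 to 289 and 2086 to 3173 CPM. Of 6 endothelial markers 4 rose and 0 fell (median log2 fold change 1.31), with 1 lower by an unadjusted edgeR p and in DESeq2, while their sums overlapped (168 to 212 against 193 to 270 CPM). Of 5 mesothelial markers 3 rose and 1 fell (median 2.88), with sums of 174 to 224 against 166 to 471 CPM. T and NK cell markers were lower (8.70 to 14.5 against 0.0755 to 0.725 CPM), and none of these cell type lists had a marker at 0 in all libraries. Both fractions were isolated as epithelium, but epithelial transcripts were far fewer in that labelled Axin2-. The part of the other cell types in the differences between fractions was not tested. Fewer epithelial cells and less of a transcript per cell cannot be told apart in such libraries.

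Of the 10 genes, only Dsp and Jup had a promoter entry among the RefSeq sequences used here (GRCm38.p6, the assembly that mm10 names). The 250 bases before the start of each are shown because these genes are partners in the same plaque whose means stood 10.3-fold and 3.25-fold apart between the fractions. The Dsp stretch is chr13:38151044-38151293 on the plus strand and the Jup stretch is chr11:100397791-100398040 on the minus strand, both written 5′ to 3′ along the gene. Capitals mark GGGCGG or its reverse complement, the GC box, which was added after the stretches had been seen.
Dsp: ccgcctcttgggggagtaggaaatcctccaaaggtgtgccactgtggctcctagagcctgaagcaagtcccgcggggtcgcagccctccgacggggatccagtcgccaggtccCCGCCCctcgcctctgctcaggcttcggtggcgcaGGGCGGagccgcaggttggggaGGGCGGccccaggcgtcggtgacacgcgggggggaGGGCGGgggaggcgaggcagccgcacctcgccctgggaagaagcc
Jup: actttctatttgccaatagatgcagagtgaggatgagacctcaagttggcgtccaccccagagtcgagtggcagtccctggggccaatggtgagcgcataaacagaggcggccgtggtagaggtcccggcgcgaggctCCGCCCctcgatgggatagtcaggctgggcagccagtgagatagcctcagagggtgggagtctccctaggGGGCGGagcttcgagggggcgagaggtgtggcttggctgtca
The GC box occurred 4 times before Dsp and 2 times before Jup, counted on both strands, and 32.7% of the 32851 promoter stretches of this length held it. GC content was 72.4% for Dsp and 62.0% for Jup, against a median of 52.4% over all stretches. Neither stretch held CACCTG, the E-box bound by ZEB and SNAI factors, or AACCGGTT, a site of GRHL factors, on either strand. These were present in 17.2% and 0.116% of all stretches. In the 50 bases after the start, which complete the RefSeq entry, Dsp held CACCTG 1 time. No motif searched contains another.

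Each of the 10 genes stood higher in every library labelled Axin2+ than in any labelled Axin2-. Of all 16896 genes tested, 23.9% showed that separation. All 10 genes passed the filter on low counts, and their log2 fold changes ran from 1.38 to 3.64 with a median of 2.89, against a median of -0.01 over all genes tested. By the edgeR test at an adjusted p of 0.05, 27.3% of all genes passed, with 14.5% higher and 12.8% lower in the libraries labelled Axin2+. The 10 genes all passed it in the upward direction, but nothing is read from that count, since the set was chosen on this contrast. The count was also not stable. It was 9 with no low-count filter, with a stricter one (1 CPM), with the mouse as a block, and whichever library was left out. Without the library labelled Axin2+ of mouse 2, 2544 genes passed in all instead of 4618. With scaling by library size alone 67.4% of the genes that passed were higher in the libraries labelled Axin2+, against 53% with TMM, and the median of all genes was 0.16. The members' median was then 3.07.

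**Figure D1:**
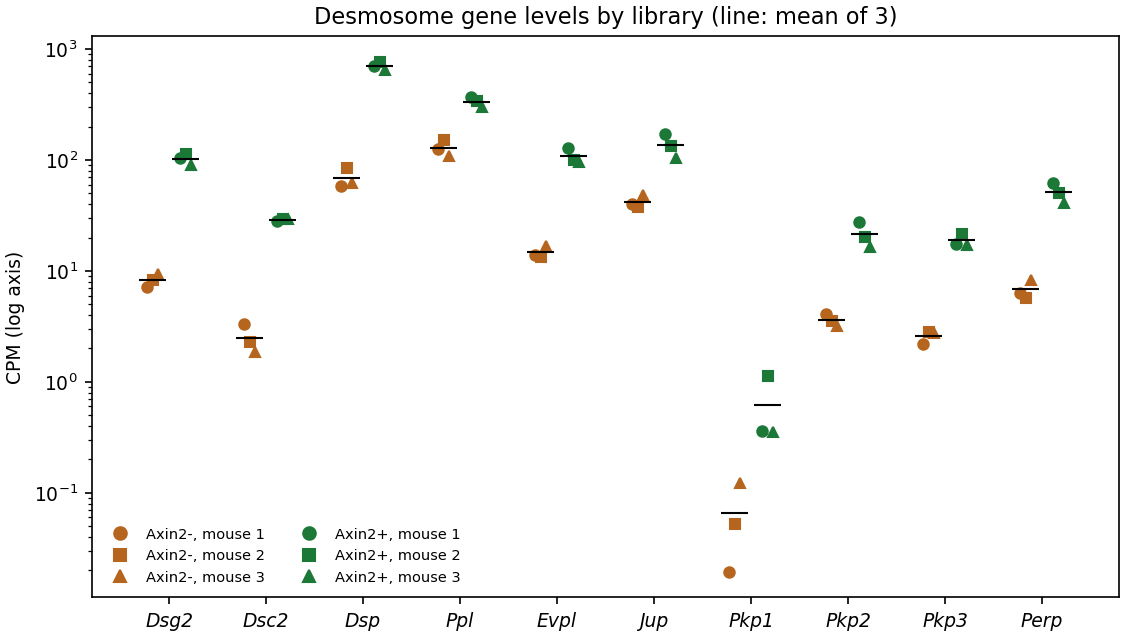
Level of each desmosome gene in each library, in CPM on a log axis, with 1 point per library, colour for the fraction, shape for the mouse and a line at the mean of 3. For each gene all 3 points labelled Axin2+ lie above all 3 labelled Axin2-, by the widest factor for Dsg2 (9.62 between the nearest libraries) and the narrowest for Ppl (1.98). The set was drawn up for the separation of Dsg2, so nothing is read from its rank.

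The cadherins had the highest fold changes of the set, which was drawn up because Dsg2 separated the fractions. Dsp (log2 fold change 3.36) lay within 1 SE of Dsc2 but not of Dsg2, and the SE of Pkp1 (3.21 ± 0.96) was wide enough to reach both. Coordinates are those of GENCODE M21 on GRCm38 (mm10). Dsg2 (ENSMUSG00000044393, chromosome 18, 20558074 to 20604521, plus strand), the desmoglein of simple epithelia, stood at 7.15, 8.32 and 9.33 CPM in mice 1, 2 and 3 in the libraries labelled Axin2- and at 105, 113 and 89.8 CPM in those labelled Axin2+. The lowest of the latter was 9.62 times the highest of the former. Mean Dsg2 was 8.27 ± 1.09 CPM in the former and 103 ± 11.9 CPM in the latter (SD, n = 3 each), a log2 fold change of 3.64 ± 0.16 (SE). Dsc2 (ENSMUSG00000024331, chromosome 18, 20030633 to 20059554, minus strand), its desmocollin partner, stood at 3.32, 2.27 and 1.87 CPM against 27.9, 29.5 and 29.7 CPM. The libraries labelled Axin2+ agreed closely in Dsc2, with a coefficient of variation of 3.32%, whereas those labelled Axin2- varied by 30.1%. Its log2 fold change of 3.54 ± 0.25 (SE) ranged from 3.39 to 3.83 when 1 library was left out. Per kilobase of exon Dsg2 exceeded Dsc2 in every library, by a ratio of 1.37, 2.34 and 3.18 in those labelled Axin2- and 2.41, 2.45 and 1.93 in those labelled Axin2+. The mean ratios, 2.30 ± 0.903 and 2.26 ± 0.289 (SD, n = 3 each), differed by less than their spread, while Dsg2 and Dsc2 themselves stood 12.4-fold and 11.7-fold apart.

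The cadherins of stratified epithelia were close to nothing in both fractions. Dsg1a and Dsg1b had 0 counts in all 6 libraries, which allows at most 0.0518 to 0.0618 CPM per library at a limit of 3 counts. Dsg1c had 9 counts in the library labelled Axin2- of mouse 1, 0 in those of mice 2 and 3, and 3, 1 and 2 in those labelled Axin2+. Dsg4 and Dsc1 had 3 counts each in all, from 1 library labelled Axin2+ each. Dsg3 had 0, 6 and 3 counts in the libraries labelled Axin2- and 11, 30 and 0 in those labelled Axin2+. Dsc3, with 5, 6 and 39 counts against 18, 25 and 0, was the 1 gene of these 7 with enough counts to test, and it did not pass in edgeR (log2 fold change -0.35 ± 1.39 SE, adjusted p = 0.875). It did not pass by an unadjusted edgeR p or in DESeq2 either, and the other 6 were not tested. These limits cover counting error only.

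The plakins, the linkers to the filaments, differed among themselves. Dsp (ENSMUSG00000054889, chromosome 13, 38151294 to 38198577, plus strand), the obligate desmosomal linker, stood at 58.8, 85.5 and 62.5 CPM in the libraries labelled Axin2- and at 710.3, 769 and 651 CPM in those labelled Axin2+. That is a log2 fold change of 3.36 ± 0.19 (SE), with the libraries labelled Axin2+ within 1.18-fold of each other. Ppl (ENSMUSG00000039457, chromosome 16, 5086291 to 5132421, minus strand), which encodes periplakin, stood at 126, 152 and 109 CPM against 369, 339 and 301 CPM. The fractions did not overlap, but the log2 fold change of 1.38 ± 0.16 (SE) was the smallest of the set. Evpl (ENSMUSG00000034282, chromosome 11, 116220559 to 116238077, minus strand), whose product envoplakin pairs with periplakin in the cornified envelope of skin, stood at 14.04, 13.3 and 16.8 CPM against 129.7, 99.0 and 95.3 CPM. Its log2 fold change was 2.88 ± 0.17 (SE), so the partners Evpl and Ppl were not higher to the same degree.

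The makeup of the transcripts of these 3 plakins accordingly differed between the fractions. Per kilobase of exon, Ppl made up 68.8, 66.9 and 63.4 percent of the sum of Dsp, Ppl and Evpl in the libraries labelled Axin2- and 36.3, 34.1 and 34.7 percent in those labelled Axin2+. Dsp made up 22.9, 26.8 and 26.0 percent in the former and 49.9, 55.2 and 53.5 percent in the latter. The leading transcript of these 3 was thus Ppl in every library labelled Axin2- and Dsp in every library labelled Axin2+. Plakin relatives outside the set are not in that sum. Among them Plec stood at 1623 ± 227 CPM in the former and 2037 ± 206 CPM in the latter (SD, n = 3 each), before division by length. The ratio of Evpl to Ppl per kilobase was 0.127 ± 0.0366 in the libraries labelled Axin2- and 0.345 ± 0.0321 in those labelled Axin2+ (SD, n = 3 each), again without overlap.

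Of the armadillo-repeat genes, Jup stood out by its small difference. Jup (ENSMUSG00000001552, chromosome 11, 100368958 to 100397763, minus strand) encodes plakoglobin, a close relative of beta-catenin that joins both desmosomes and adherens junctions. It stood at 40.2, 37.5 and 48.1 CPM in the libraries labelled Axin2- and at 171, 134 and 103 CPM in those labelled Axin2+. The fractions were 2.15-fold apart at their nearest libraries, and the log2 fold change was 1.70 ± 0.20 (SE). The ratio of Dsp to Jup per kilobase was 0.974, 1.52 and 0.865 in the libraries labelled Axin2- and 2.76, 3.81 and 4.20 in those labelled Axin2+.

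Plakophilins bind the desmosomal plaque and gather desmoplakin to it. Pkp2 (ENSMUSG00000041957, chromosome 16, 16213318 to 16272712, plus strand), the plakophilin common to simple epithelia and heart muscle, stood at 4.10, 3.53 and 3.19 CPM against 27.3, 20.2 and 16.5 CPM, a log2 fold change of 2.56 ± 0.25 (SE). Pkp3 (ENSMUSG00000054065, chromosome 7, 141078218 to 141090510, plus strand), found in most epithelia, stood at 2.22, 2.83 and 2.74 CPM against 17.5, 21.7 and 17.2 CPM, a log2 fold change of 2.86 ± 0.21 (SE). Both were higher in each library labelled Axin2+. Of the sum of Pkp1, Pkp2 and Pkp3 per kilobase of exon, Pkp2 made up 55.4, 45.4 and 43.2 percent in the libraries labelled Axin2-. In those labelled Axin2+ it made up 51.0, 37.7 and 38.8 percent. Their relative Pkp4 is not in that sum, and stood at 61.3 ± 2.43 and 103 ± 14.2 CPM before division by length (SD, n = 3 each). The shares depend on the length used, since with the longest transcript Pkp2 was above Pkp3 in each library labelled Axin2-. The ranges of the Pkp2 share overlapped between the fractions. Paired by the mouse numbers of the labels, the Pkp2 share was lower, and the Pkp3 share higher, in each of the 3 libraries labelled Axin2+. With 3 pairs, and cells perhaps pooled across mice, this is a description.

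Pkp1 (ENSMUSG00000026413, chromosome 1, 135871395 to 135919207, minus strand), the plakophilin of stratified epithelia, was nearly absent. It had 1, 3 and 6 counts in the libraries labelled Axin2- and 21, 60 and 19 in those labelled Axin2+, of which the library of mouse 2 held the most. Pkp1 got past the low-count filter only through the libraries labelled Axin2+, so a difference was built into its being tested. Its fitted log2 fold change of 3.21 ± 0.96 (SE) was 2.43 when the Axin2+ library of mouse 2 was left out and 4.01 when the Axin2- library of mouse 3 was.

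Perp (ENSMUSG00000019851, chromosome 10, 18845020 to 18857073, plus strand) encodes a tetraspan membrane protein of desmosomes and a target of p53 and p63. It stood at 6.38, 5.75 and 8.30 CPM in the libraries labelled Axin2- and at 61.8, 50.7 and 40.9 CPM in those labelled Axin2+, a log2 fold change of 2.91 ± 0.22 (SE). Trp63, the gene of p63, stood at 3.80 ± 1.11 and 4.01 ± 1.57 CPM (SD, n = 3 each) and did not pass (edgeR adjusted p = 0.905). The direction of Trp63 turned when 1 of 2 libraries was left out (log2 fold change 0.08 with all, -0.09 without that labelled Axin2- of mouse 3, -0.26 without that labelled Axin2+ of mouse 2).

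Per length, Dsp was the most abundant of the 10 transcripts in the libraries labelled Axin2+, at 73.5 ± 6.12 CPM per kilobase of exon, followed by Ppl at 48.8 ± 4.92 (SD, n = 3, as in all values of this form). Perp at 26.2 ± 5.35, Jup at 21.2 ± 5.29 and Evpl at 16.9 ± 2.96 came next. Their ranges overlapped from neighbour to neighbour, though Perp was above Jup, and Jup above Evpl, in each of the 3 libraries. Dsg2 followed at 12.4 ± 1.44, with this length below every library of Evpl. Dsc2 at 5.50 ± 0.182, Pkp3 at 5.20 ± 0.698 and Pkp2 at 3.98 ± 1.03 overlapped, and Pkp1 was last at 0.123 ± 0.0890. In the libraries labelled Axin2- the order began with Ppl at 18.7 ± 3.20, then Dsp at 7.14 ± 1.50 and Jup at 6.52 ± 0.858, which overlapped. Lengths were also taken from the longest transcript, 3.21 kilobases for Jup in place of 6.44. With these, Jup came before Dsp in the libraries labelled Axin2- and before Perp in those labelled Axin2+. By its mean Pkp2 then came before Pkp3 in both fractions. In the libraries labelled Axin2+ the 2 genes overlapped, and Pkp2 was the higher in only 1 of 3. In the libraries labelled Axin2+, Dsg2 at 17.8 ± 2.07 then came before Evpl in 2 of 3 libraries, with overlap. Dsc2 moved from place 7 to place 9 by its mean, though Pkp3, next above it, was the higher in only 1 of 3 libraries. Dsp and Ppl kept the first places in the libraries labelled Axin2+, and Ppl the first in those labelled Axin2-.

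**Figure D2:**
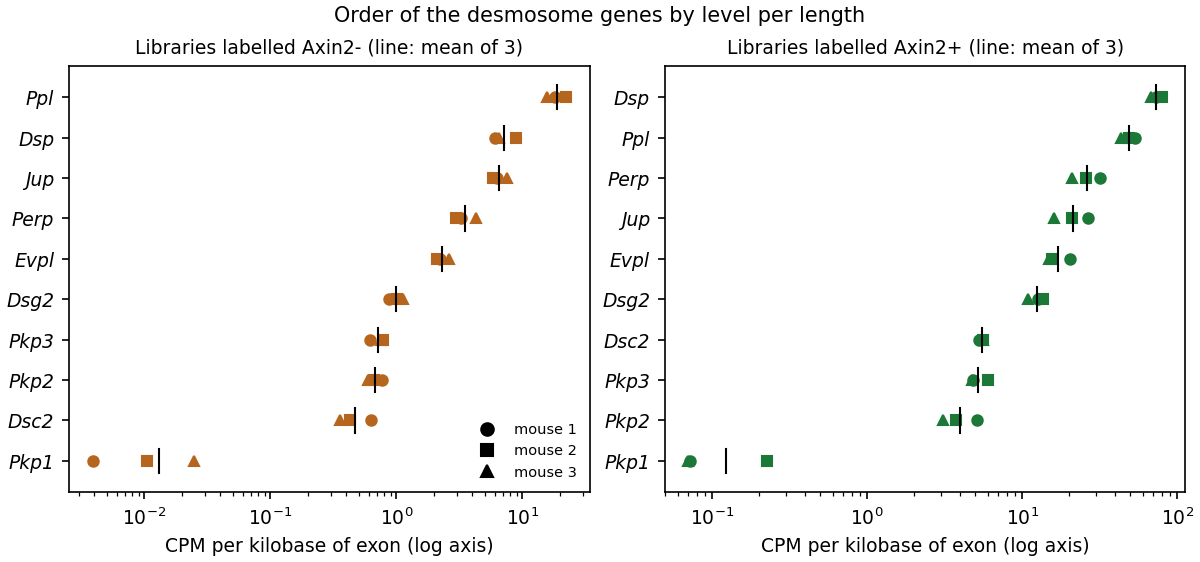
Level of each desmosome gene per kilobase of exon (union of annotated exons), on a log axis, for the libraries labelled Axin2- (left) and Axin2+ (right), with 1 point per library and a line at the mean of 3. Ppl leads on the left at 18.7 and Dsp on the right at 73.5 CPM per kilobase, and Pkp1 is last in both.

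Set against the epithelial transcripts of the same library, the 10 genes fell into unequal places. Relative to the sum of Epcam, Krt8, Krt18, Krt19 and Cdh1, Dsg2 stood at 4.75, 3.68 and 4.05 percent in the libraries labelled Axin2- and 3.90, 5.36 and 5.29 percent in those labelled Axin2+, ranges that overlap. Dsc2 and Dsp overlapped likewise, with means of 1.34 and 1.39 percent for Dsc2 and 34.6 and 33.7 percent for Dsp. Pkp2, Pkp3, Perp and Evpl were lower in each library labelled Axin2+, at 0.518, 0.688, 0.685 and 0.673 times the mean, but relative to Krt8 and Krt18 the libraries of Pkp3, Perp and Evpl overlapped. Those of Jup did not overlap with either reference. Relative to the 5 genes, Jup stood at 26.7, 16.6 and 20.9 percent in the libraries labelled Axin2- and 6.34, 6.36 and 6.09 percent in those labelled Axin2+. Ppl stood at 83.5, 67.4 and 47.2 percent of the same 5 genes against 13.7, 16.0 and 17.8 percent. Per epithelial transcript, Ppl and Jup were thus lower in the libraries labelled Axin2+, at 0.240 and 0.293 times the mean in those labelled Axin2-. These 2 genes remained the lowest with other references, at 0.130 and 0.158 times for Epcam alone and 0.275 and 0.335 times for Krt8 and Krt18. For Dsg2 the reference decided the direction, since the same ratio was 1.17 with 5 genes, 1.35 with Krt8 and Krt18 and 0.614 with Epcam alone. The same held for Dsc2 (1.04, 1.21 and 0.530), and Dsp passed from 0.972 and 1.12 to 0.525. The Axin2- library of mouse 1, highest in Ppl and Jup per epithelial transcript, had the lowest epithelial sum (151 CPM) and the highest smooth muscle and stromal sums (5645 and 16208 CPM). That of mouse 2 had the lowest smooth muscle and stromal sums (2095 and 7830 CPM). It had the lowest Jup per epithelial transcript (16.6 percent), but more Ppl than that of mouse 3 (67.4 against 47.2 percent). The part of those cells in the levels of Ppl and Jup was not tested.

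**Figure D3:**
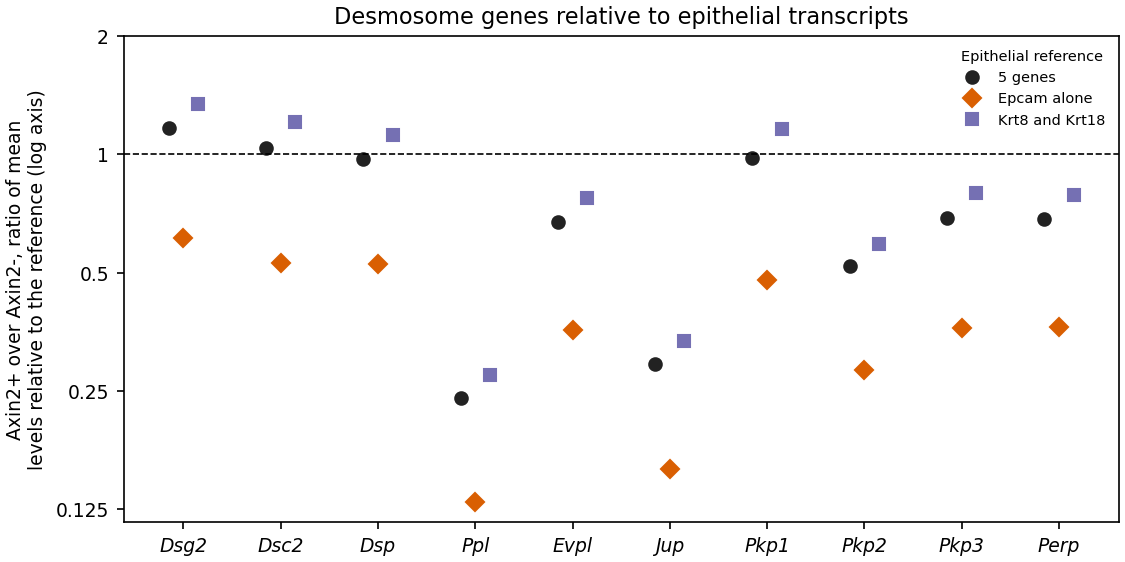
Ratio of the mean level in the libraries labelled Axin2+ to that in the libraries labelled Axin2-, after each gene was divided by an epithelial reference in the same library, on a log axis where 1 means equal. Ppl and Jup are the lowest points for each of the 3 references, and Dsg2, Dsc2 and Dsp lie near 1 for the 5 genes and below it for Epcam alone.

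Within the fraction labelled Axin2+ the 10 genes did not vary together. The choice of the set was not wholly apart from this spread, since how cleanly Dsg2 separated the fractions depends on it. Jup, Pkp2, Perp, Evpl and Ppl were highest in mouse 1 and lowest in mouse 3. Jup lay 0.36 above the fraction mean in mouse 1 and 0.37 below it in mouse 3 on the log2 scale (0.36 and -0.37). The summed epithelial transcripts did the same, at 0.34, -0.01 and -0.33 in mice 1, 2 and 3, and so did Krt8, Krt18 and Krt19 within that sum. Epcam (205, 254 and 223 CPM) and Cdh1 (358, 425 and 301 CPM) were instead highest in mouse 2. Relative to the summed epithelial transcripts Jup varied little, between 6.09 and 6.36 percent, and so did Pkp2 (0.956 to 1.01 percent) and Perp (2.29 to 2.41 percent). Other references changed this. Relative to Epcam alone Jup stood at 83.8, 52.9 and 46.2 percent in mice 1, 2 and 3, and Pkp2 and Perp were also highest in mouse 1. Relative to Krt8 and Krt18 all 3 were lowest in mouse 1, with Perp at 3.76, 4.84 and 5.09 percent. Like Epcam and Cdh1, Dsg2, Dsp and Pkp3 were highest in mouse 2, at 0.15, 0.12 and 0.22 above their means. Dsc2 stayed within 0.06 of its mean (-0.06, 0.02 and 0.03). Macrophage and lymphatic endothelial markers were also highest in mouse 1 and lowest in mouse 3, at 3302, 1845 and 579 CPM and at 313, 218 and 108 CPM when summed. In the libraries labelled Axin2- they summed to 28.7 to 262 CPM and to 85.6 to 131 CPM, and 6 of 6 macrophage and 1 of 5 lymphatic markers rose by the edgeR test. Mesothelial markers were highest in mouse 1 as well, at 471 CPM against 166 and 272. The part of these cells in the differences between libraries was not tested. With 3 libraries per fraction these are descriptions.

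**Figure D4:**
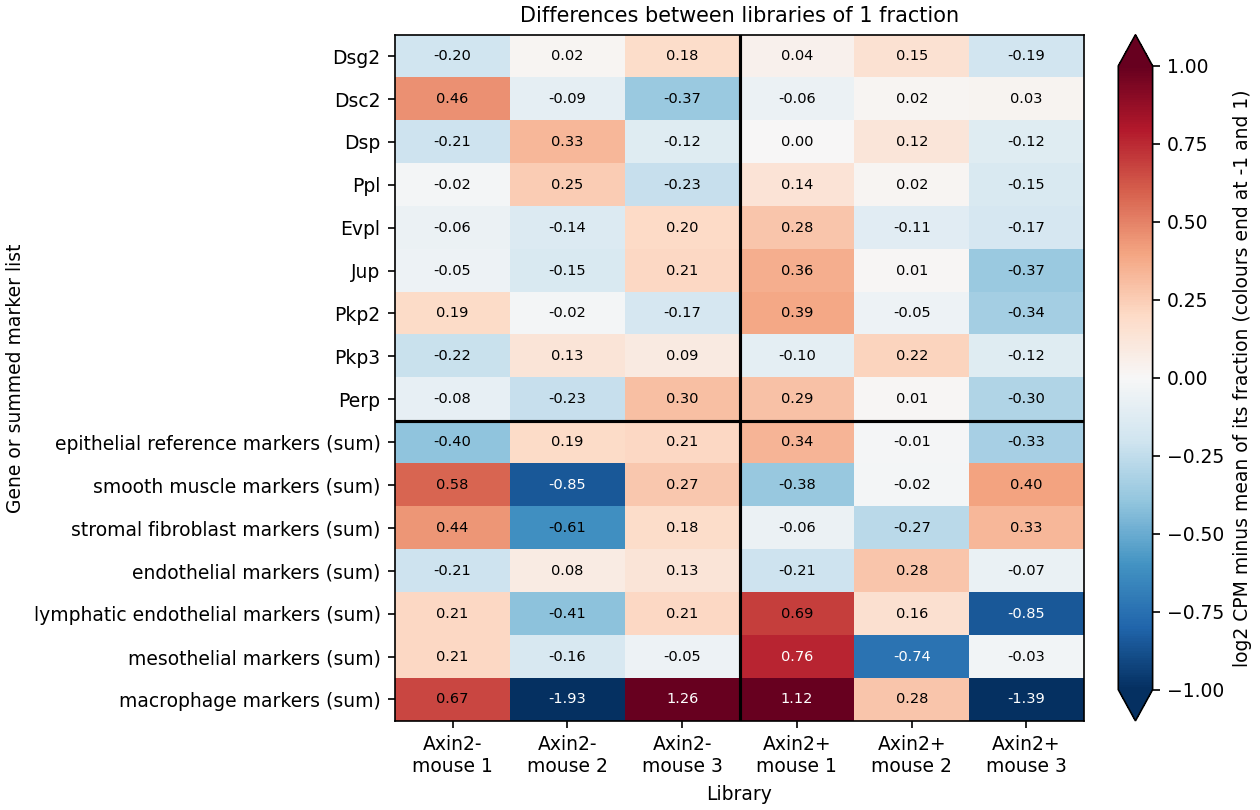
Difference of each library from the mean of its own fraction, as log2 CPM, for 9 desmosome genes (Pkp1 left out for its low counts) and, below the line, for summed marker lists; red is above and blue below the mean, and colours end at -1 and 1. Jup, Pkp2 and Perp follow the epithelial sum across the libraries labelled Axin2+ (0.34, -0.01, -0.33), while Dsg2, Dsp and Pkp3 peak in mouse 2.

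Genes that work beside desmosomes were counted from lists, to be read beside the 14.5% of all genes that rose and the 12.8% that fell. Of the adherens junction genes, 5 of 10 tested rose and 2 fell by the edgeR test, with a median log2 fold change of 0.67. Cdh1, E-cadherin, rose from 25.6 ± 8.84 to 361 ± 61.9 CPM (log2 fold change 3.82 ± 0.30 SE, edgeR adjusted p = 0.000382). Afdn, a junction scaffold listed as Mllt4, rose from 148 ± 7.09 to 370.4 ± 42.7 CPM, and the catenin relatives Arvcf, Pkp4 and Ctnnd1 rose by 1.08, 0.75 and 0.59 on the log2 scale. Ctnnd1 was named after its values were seen. Pkp4, a relative of the plakophilins outside the desmosome proper, thus differed far less than Pkp2 or Pkp3. Cdh2, N-cadherin of mesenchymal cells, and Vcl, vinculin of actin anchorage, fell by 1.15 and 0.96 on the log2 scale. Cdh2 lost its call when the Axin2- library of mouse 1 was left out (edgeR adjusted p = 0.0513), and Vcl when the Axin2- library of mouse 3 (0.0535) or the Axin2+ library of mouse 2 (0.0594) was.

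Of the intermediate filament genes, 5 of 9 rose and 1 fell (median 2.86). The simple keratins Krt8, Krt18, Krt19 and Krt7, to which desmoplakin attaches, rose by 3.32, 3.25, 3.21 and 2.78 on the log2 scale, a range that holds the values of Pkp3, Evpl and Perp. Krt15, a keratin of basal cells that was named after its values were seen, rose by 2.86, but its call was lost with the mouse as a block (edgeR adjusted p = 0.106), without any 1 of the libraries labelled Axin2- (0.0803 to 0.0938) and without that labelled Axin2+ of mouse 2 (0.110). Des, the desmin of muscle, fell from 768 ± 143 to 143 ± 61.5 CPM (edgeR adjusted p = 0.00294). Of the plakin relatives and hemidesmosome genes, which fix keratin to the basement membrane, 7 of 11 rose and 0 fell, also by unadjusted edgeR p or DESeq2 (median 1.35). The integrins Itgb4 and Itga6 rose by 3.09 and 2.02 and the laminin chain Lamb3 by 3.37 on the log2 scale.

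Of the cornified envelope genes, the skin structure in which Ppl and Evpl are best known, 5 of 13 could be tested. Sprr2f rose, from 0.232 ± 0.0568 to 3.13 ± 2.31 CPM (edgeR adjusted p = 0.0108), and 0 fell, also by unadjusted edgeR p or DESeq2, where 2 rose. The 13 genes summed to 8.23 to 11.9 CPM in the libraries labelled Axin2+, in which Ppl and Evpl stood at 301 and 95.3 CPM or more. In the PERP and p53 family 1 of 8 rose, Emp2 (by 0.63), and 1 fell, Pmp22 (log2 fold change -0.82), with a median of -0.01. By an unadjusted edgeR p 2 fell, as in DESeq2. Cdkn1a, named after its values were seen, just missed the threshold (log2 fold change -1.15 ± 0.36 SE, edgeR adjusted p = 0.0509). The call of Emp2 was lost in 5 settings, the mouse as a block among them (edgeR adjusted p = 0.0739).

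Of genes known to regulate desmosome genes or their assembly, 8 of 15 tested rose and 4 fell (median 0.82). The epithelial transcription factors Grhl2 and Ovol2 rose by 3.99 and 4.13 on the log2 scale, and Kazn, whose product kazrin binds periplakin, rose from 14.2 ± 5.72 to 53.5 ± 4.61 CPM (edgeR adjusted p = 0.00523). Snai2 and Zeb1, repressors of epithelial junction genes, fell from 16.0 ± 2.63 to 3.20 ± 0.430 CPM and from 201 ± 23.5 to 57.4 ± 17.9 CPM (edgeR adjusted p = 0.000718 and 0.00207). Prkca, the protein kinase C that loosens desmosomal adhesion, fell from 48.3 ± 11.6 to 16.6 ± 3.55 CPM (edgeR adjusted p = 0.00380). Snai1 fell too (log2 fold change -1.35), but its call was lost in 7 settings, with an edgeR adjusted p of up to 0.131 without the library labelled Axin2+ of mouse 2. Smooth muscle and stromal markers fell in the same libraries, and their part in these differences was not tested.

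**Figure D5:**
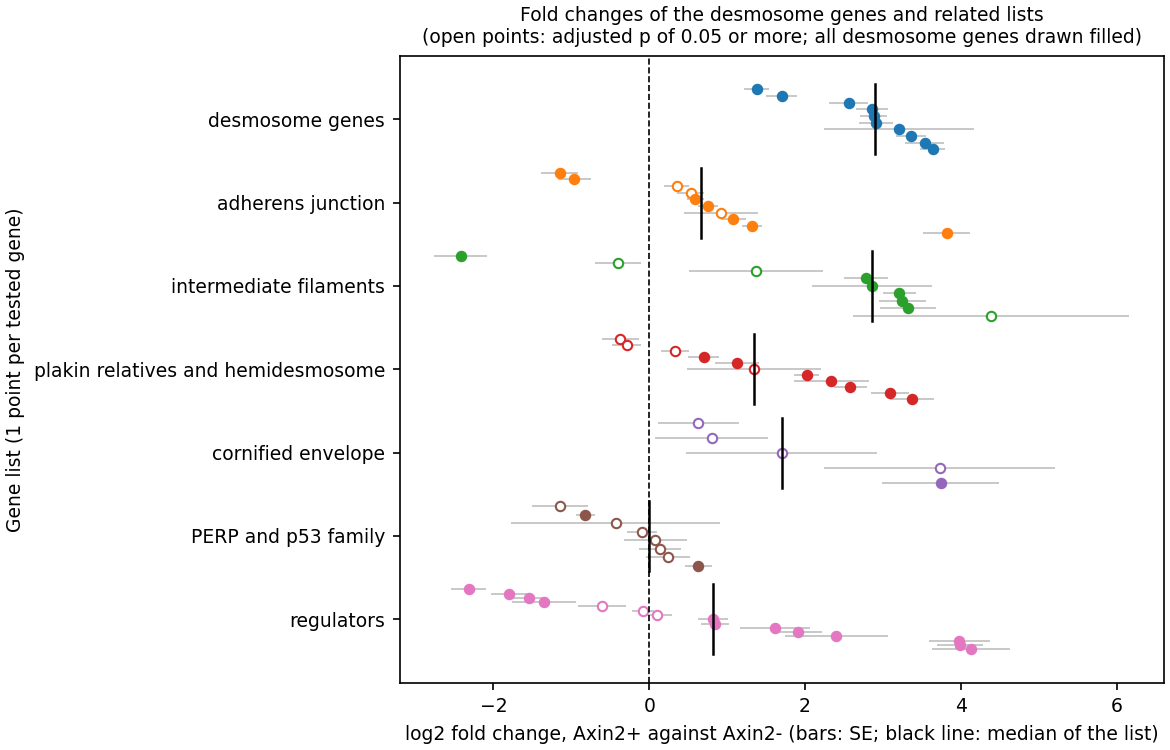
Log2 fold change, Axin2+ against Axin2-, of each tested gene of the desmosome set and 6 related lists, with SE bars and a black line at the median of a list; filled points passed the edgeR test at 0.05, and the desmosome genes are drawn filled as a description. The desmosome genes all lie between 1.38 and 3.64, with a median of 2.89, beside 0.67 for the adherens junction list.

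The genes whose pattern over the 6 libraries was most like that of Dsg2 were found by the root mean square difference of centred log2 CPM among 11082 genes of at least 5 CPM. Gcnt1, a glycosyltransferase gene, came first at 0.0609, with 5.44, 6.94 and 6.90 CPM in the libraries labelled Axin2- and 82.9, 83.4 and 69.5 CPM in those labelled Axin2+. Tjp3 at 0.0883, Lad1 at 0.105, Ccnd1 at 0.113 and Esrp2 at 0.116 followed. They encode a tight junction scaffold, a basement membrane filament protein, cyclin D1 and an epithelial splicing regulator. Dsp, the nearest of the other desmosome genes, came at rank 33 with 0.222, Dsc2 stood at 0.370, and Jup and Ppl were the most distant of those compared at 0.996 and 1.14. The 5 genes nearest to Dsg2 were thus not its desmosomal partners. Dsp, Dsc2, Pkp3, Perp and Evpl still ranked 33, 124, 150, 154 and 162 among the 11082 genes, and Pkp2, Jup and Ppl 310, 615 and 823. The measure takes in the difference between the fractions, on which the set was chosen, so nothing further is read from it.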

How the data were processed

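Read counts per gene were analysed for 6 libraries, 3 per fraction, each treated as 1 fraction of 1 mouse. The authors deposited whole-number counts. Tools listed without roles in the submitters' processing notes are STAR 2.5.3a, featureCounts 1.5.3, Subread, bcl2fastq 2.20.0.422, StringTie 1.3.3 and edgeR 3.22.5, and the build is mm10. Annotation version and strand setting are not given in the sources used, so reads of the predicted genes that overlap Dsg2 and Dsp on the opposite strand, and Pkp1 on the same strand, cannot be told apart from theirs. The authors' deposited comparison table gives log2 fold changes, per the file headers. It holds 9 of the 10 genes, and its values differ from those used here by at most 0.0084.

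Genes were kept with filterByExpr and tested in R 4.3.3 with edgeR 4.0.16 (TMM scaling, robust quasi-likelihood F test, fraction as the 1 term), with Benjamini-Hochberg adjustment over 16896 genes and a threshold of 0.05. Each SE is the log2 fold change divided by the root of its F value. DESeq2 1.42.0 was an alternative. In simulated counts with 16896 genes and this design, the fit recovered 67.5% of genes changed 4-fold, with 6 false among 141 calls. Far fewer genes were changed there than the 4618 that passed in the data, so that share need not hold for the data. The mouse pairs the libraries per the labels. Across genes, the deviations of a mouse's 2 libraries from their fraction means had an r of 0.27, 0.013 and -0.067 in mice 1, 2 and 3, against -0.24 to 0.25 between libraries of different mice. Gene lengths and coordinates come from GENCODE M21 (GRCm38).

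The members and lists were chosen with earlier results of these data known. Of 114 listed genes outside the members, 111 were found by symbol, 2 by an older one and 1 was not found. Named are all members, up to 4 genes per list and direction with the smallest p, and the 5 genes of at least 5 CPM nearest to Dsg2 in pattern, predicted genes left out. Some genes this rule would name are not reported here. Alternatives were other scalings, filters, DESeq2, the mouse as a block, leaving out each library, another gene length and other epithelial references.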

Additional observations from a re-analysis of the deposited data

How the results depend on the processing

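The members' median log2 fold change of 2.89 ranged from 2.83 to 3.07 over 13 other settings. Each member's fold change kept its direction in all settings that tested it, which were 12 for Pkp1. Of these values 126 stayed within 1 SE and 3 moved further, for Dsg2 and Ppl with scaling by library size alone and for Dsc2 without the library labelled Axin2- of mouse 1. With the mouse as a replicate block 32 listed genes outside the members and 3954 genes in all passed, instead of 35 and 4618. Krt15, Emp2 and Snai1 lost their calls under the block, and no other named gene outside the members did. Of the members, 9 passed under the block. Leaving out 1 library at a time gave 2544 to 4114 genes, the lowest without that labelled Axin2+ of mouse 2. DESeq2 called 6094. The direction turned for Dsc3 with the replicate block (0.17) and without the libraries labelled Axin2- of mouse 3 (1.36) or Axin2+ of mouse 3 (0.23). It also turned for Trp63 (-0.09 and -0.26, without the libraries labelled Axin2- of mouse 3 and Axin2+ of mouse 2) and for Col17a1 (-0.25 without the latter). Leaving out 1 library gave -1.08 to 1.36 for Dsc3, -0.26 to 0.33 for Trp63 and -0.25 to 1.83 for Col17a1. The cause was not tested. The level per kilobase moved by more than 1 SD in 10 of 20 cases with the longest transcript, and the level relative to the epithelial transcripts in 39 of 40 with another reference, since the reference sums differ. Depth limits Pkp1 and the cadherins of stratified epithelia, which rest on at most 60 counts per library.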

Other observations

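Some transcripts known from basal and stratified epithelium were highest in the library labelled Axin2+ of mouse 2. Library and genes were chosen after their values were seen. It held 60 counts of Pkp1 and 30 of Dsg3, against 21 and 11 in mouse 1 and 19 and 0 in mouse 3 of the same fraction. Krt5, a keratin of basal cells, stood at 11.5 CPM there, against 0.897 and 0.205 CPM in the other two libraries labelled Axin2+ and at most 0.525 CPM in those labelled Axin2-. Krt15 stood at 12.3 CPM against 4.42 and 1.45 CPM, and Col17a1, the collagen of hemidesmosomes, at 11.5 CPM against 2.16 and 1.08 CPM. Trp63 was also highest there, at 5.70 CPM, though the library labelled Axin2- of mouse 2 reached 4.998 CPM. Krt14 did not single that library out, at 8.35, 8.51 and 4.89 CPM in mice 1, 2 and 3. Dsc3 was highest in the library labelled Axin2- of mouse 3 (39 counts) and Dsg1c in that labelled Axin2- of mouse 1 (9 counts), while Tgm1 and Sprr1a were highest in that labelled Axin2+ of mouse 1, at 7.14 and 2.28 CPM. Neither Krt5, Krt14 nor Col17a1 passed between the fractions (edgeR adjusted p = 0.108, 0.279 and 0.280).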
